A study of Homo sapiens with 14 samples.

Results

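The cytosolic ribosomal protein genes code for the proteins that, with ribosomal RNA, build the small and the large subunit of the ribosome in the cytoplasm. They were taken by name: protein-coding genes whose symbol is RPL or RPS and a number, with an A, X or L suffix allowed. RPSA and the stalk genes RPLP0, RPLP1 and RPLP2 were added. Pseudogenes and the RPS6K and RPS19BP genes were left out. RPS4Y1, a protein-coding gene of the Y chromosome, was in the table but lay outside this rule by its suffix. This gave 84 of the 25952 genes of the count table, 32 of the small and 52 of the large subunit. All 84 passed the filter on low counts, which left 19142 genes to test. The 84 include 7 genes whose symbol adds an L to that of a closely related member: RPL3L, RPL7L1, RPL22L1, RPL26L1, RPL36AL, RPL39L and RPS27L. A further 528 ribosomal protein pseudogenes in the table were kept apart.

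The RNA came from NT2, an established human embryonal carcinoma line that differentiates in culture, in a study of nucleotide excision repair during differentiation. Total RNA was sequenced in 14 libraries, 2 in each of 7 groups: cells labelled as without treatment at day 0, and cells after 5, 10 or 21 days of retinoic acid (RA) or of bone morphogenetic protein 2 (BMP2). Per the labels, RA was given at 10 µM to obtain neurons, and BMP2 at 30 ng/ml at first and 40 ng/ml in later experiments to obtain muscle cells, and the dose behind each BMP2 library is not stated. Solvent-treated cultures of matching days were not analysed here, so every comparison with day 0 also spans the time in culture, and the 6 such comparisons share the same pair of untreated libraries. All groups are 1 cell line, and nothing in the labels tells if the 2 libraries of each group came from separate cultures, so p-values measure the spread between these libraries, which may be technical.

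Ribosomal proteins are made in near-equal numbers because each ribosome holds about 1 copy of most of them, and growing cells spend much of their transcription and translation on them. Most of their mRNAs begin with a 5′ terminal oligopyrimidine (TOP) motif, a C followed by a run of C and T, through which the kinase mTOR and the RNA-binding protein LARP1 control their translation together. MYC family factors promote ribosome production, and RNA polymerase I supplies the ribosomal RNA that the proteins join in the nucleolus. Some members have closely related copies that are expressed in particular tissues, such as RPL39L in the testis.

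Total counts were 45773278 to 75754396 per library. The summed level of 5 embryonal carcinoma markers (POU5F1, NANOG, LIN28A, TDGF1 and DNMT3B) was 5489 and 6239 CPM (counts scaled to library size) in the untreated libraries and 10.3 to 23.8 CPM in the 4 libraries of day 21. The 2 libraries of BMP2 day 10 stood apart from each other: these markers summed to 760.6 CPM in replicate 1 and 11.9 CPM in replicate 2. The 4 fibroblast and matrix markers (COL1A1, COL3A1, LUM and DCN) summed to 1539 and 13630 CPM in the same 2 libraries. The matrix markers summed to 5473 and 5524 CPM at RA day 21 and to 32850 and 31410 CPM at BMP2 day 21, from 9.69 and 20.6 CPM in untreated cells. The 4 neuronal markers in the table summed to 67.3 and 84.1 CPM in untreated cells, to 1029 and 667.2 CPM at RA day 10, and to 498.9 and 535.2 CPM at RA day 21. Of the skeletal muscle markers MYOD1, MYOG, MYF5 and MYH3, 3 were in the table, and their sum was at most 7.20 CPM in any library, near 0 in untreated and BMP2-treated cells alike. The 6 smooth and cardiac muscle markers summed to 41.2 and 107.7 CPM in untreated cells and to 357.7 to 3029 CPM in the BMP2 libraries.

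The 84 members together took 5.64% and 5.64% of all counts in the 2 untreated libraries. The share was 5.28% and 5.86% at RA day 5, 4.82% and 3.79% at RA day 10, and 6.38% and 5.90% at RA day 21. The BMP2 libraries gave 4.34% and 4.68% on day 5. They gave 5.37% and 2.90% on day 10 and 4.65% and 2.72% on day 21. The untreated libraries were thus above every library of RA day 10 and of all 3 BMP2 days, and below both libraries of RA day 21, while those of RA day 5 lay on either side. The lowest shares were those of the second BMP2 replicates of days 10 and 21. The large subunit held more of the counts than the small one in every library, on average 3.35% against 2.29% in untreated cells. Pseudogenes added 0.046% to 0.105% of the counts, or 1.06 to 1.86 counts per 100 counts of members, the lowest ratios being those of RA day 21. These are bulk samples, in which fewer cells that make much ribosomal protein mRNA and less of it in each cell cannot be told apart.

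**Figure D1:**
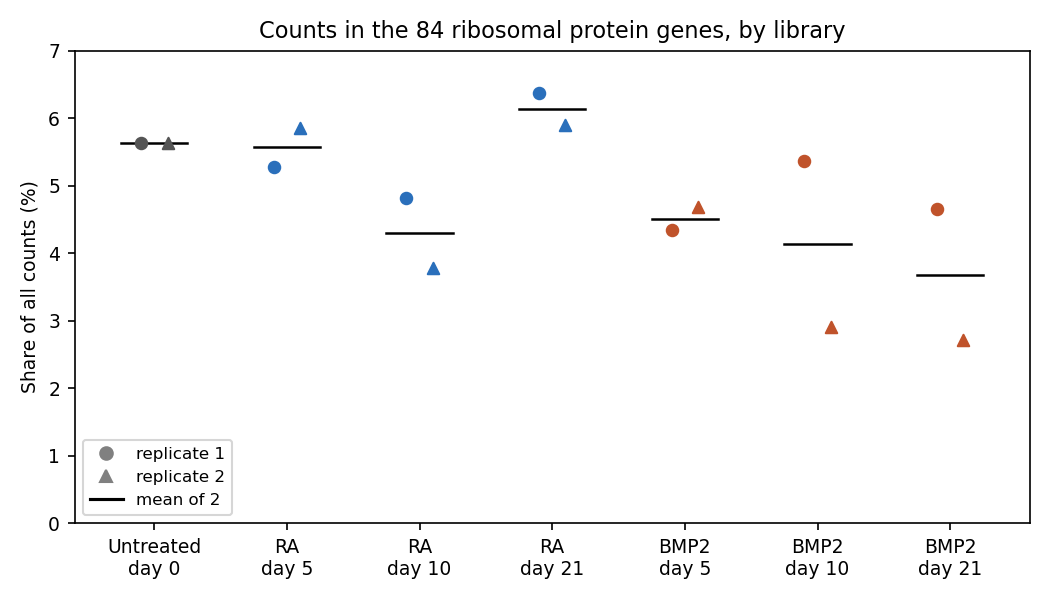
Share of all counts that fell in the 84 ribosomal protein genes, in percent, for each of the 14 libraries (circles, replicate 1; triangles, replicate 2; bars, mean of 2). RA day 21 was highest at 6.38% and 5.90%, and replicate 2 of BMP2 days 10 and 21 lowest at 2.90% and 2.72%.

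In 3 groups the members also differed together between the 2 replicates. In RA day 10, 79 of the 84 were higher in replicate 1 than in replicate 2, with a median difference of 0.30 on the log2 scale. In BMP2 day 10 it was 78 of 84 with a median of 0.75, and in BMP2 day 21 it was 82 of 84 with a median of 0.71. Over all genes tested the median difference between replicates was within 0.004 of 0 in 6 groups and -0.0042 in RA day 21. In the other 4 groups the members' median difference was between -0.09 and 0.07. The 2 BMP2 day 21 libraries had like sums of embryonal carcinoma markers (15.4 and 23.8 CPM) and of matrix markers, unlike the 2 libraries of day 10. The part of the marker difference in the members' difference was not tested.

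**Figure D2:**
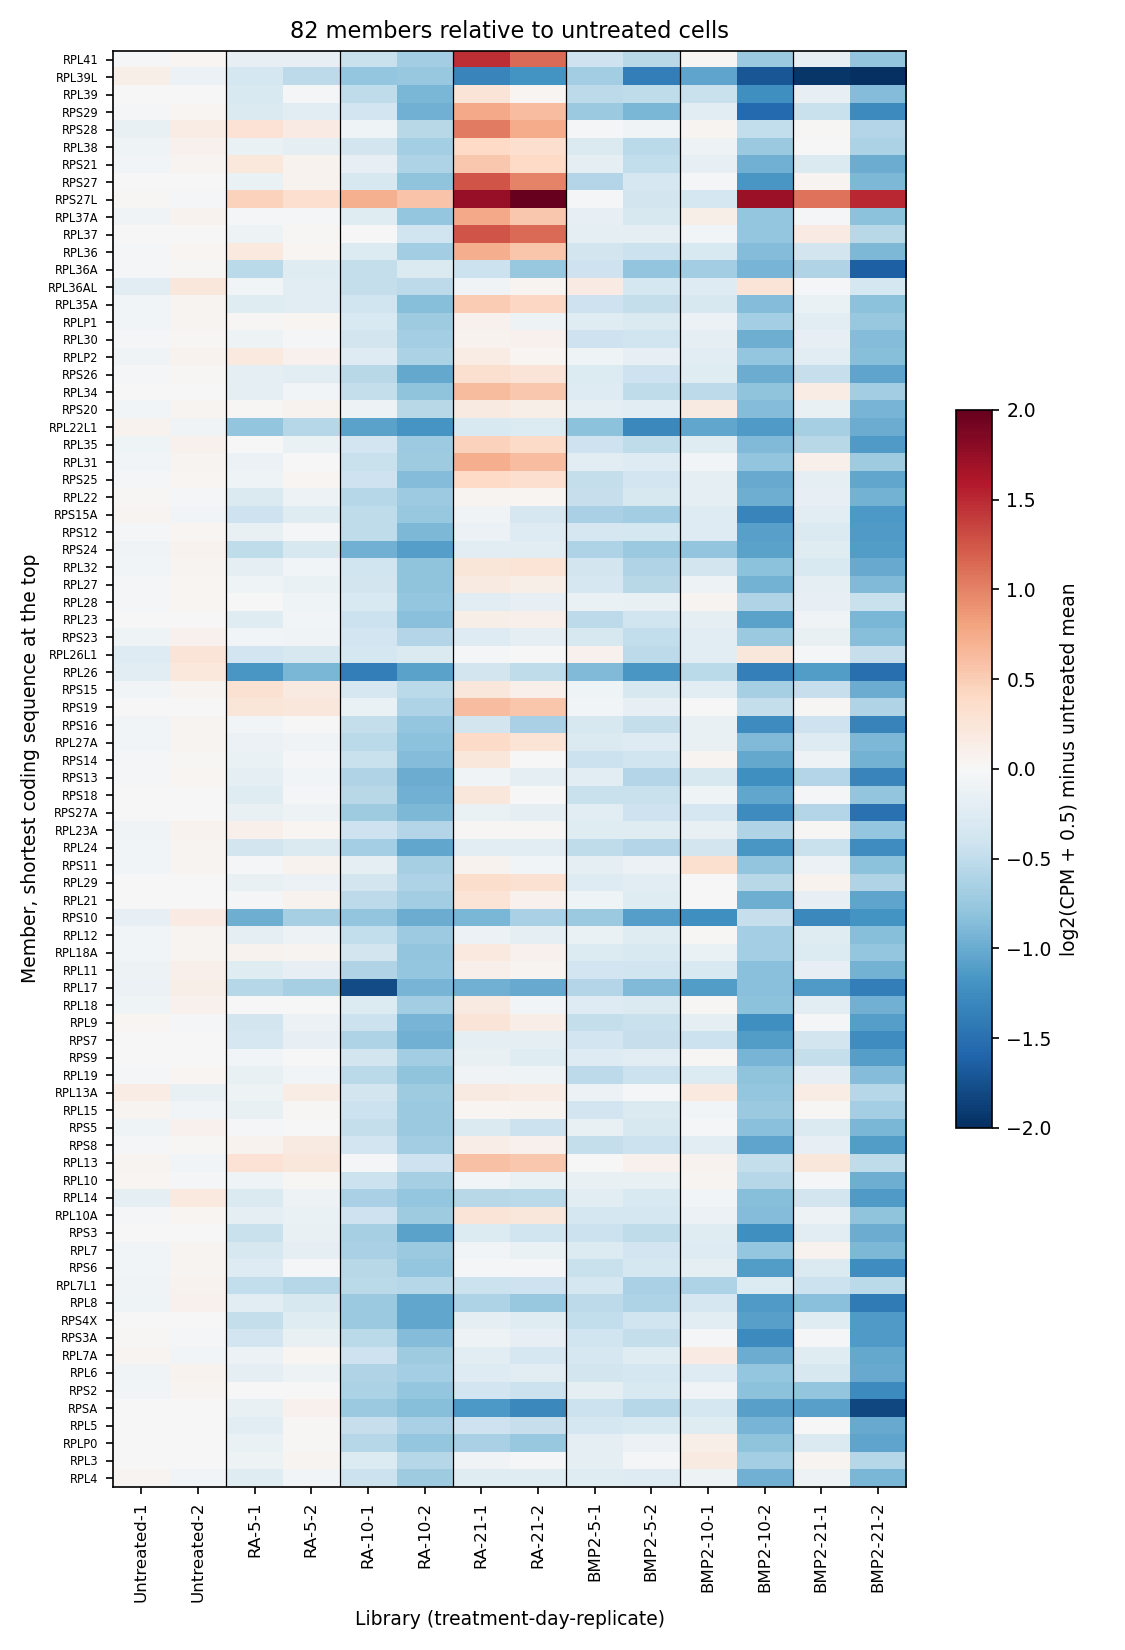
Difference of log2(CPM + 0.5) from the untreated mean for 82 members (rows, ordered from the shortest to the longest coding sequence) in each library (columns). Most rows are below untreated in RA day 10 and in replicate 2 of BMP2 days 10 and 21, and RA day 21 runs from higher at the top to lower at the bottom.

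After 5 days of RA, ribosomal protein mRNA was close to the untreated level. The median log2 fold change of the 84 members was -0.12, beside 0.00 over all genes tested. The test called 1 member, RPL22L1, which fell, where 8.31% of all genes tested were called and 2.72% were called lower (edgeR quasi-likelihood test, Benjamini-Hochberg adjusted p under 0.05). For 43 members both RA libraries were below both untreated ones, as for 30.9% of all genes.

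After 10 days of RA nearly all members were lower. Both RA libraries lay below both untreated libraries for 81 of the 84 members, as against 33.8% of all genes tested, and the median log2 fold change was -0.60 beside 0.06 over all genes. RPS27L, a relative of RPS27, was the 1 member with both libraries above. The test called 6 members, all lower, in a comparison that called 24.0% of all genes, with 11.1% lower. These were RPL17, RPL26, RPL22L1, RPS24, RPL8 and RPL7L1, with log2 fold changes from -1.45 (RPL17) to -0.56 (RPL7L1). The count depended on single libraries: it was 31 without either BMP2 day 10 library, 16 and 14 without BMP2 day 21 replicate 1 and 2, 3 without RA day 10 replicate 2, and 1 without untreated replicate 2 or RA day 10 replicate 1. Without replicate 2 of BMP2 days 10 and 21 together it was 71, of which 1 was higher. In the fits without 1 library, here and below, the share of all genes called moved as well as the number of members called. With library totals in place of TMM scaling the median of all genes moved to 0.28 and that of the members to -0.37, and 4 members were called lower.

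After 21 days of RA about as many members were higher as were lower. The median was 0.00, beside 0.10 over all genes tested; 34 members had both libraries above the untreated ones and 38 had both below, as against 44.4% and 38.1% of all genes. Of the 84, 6 rose and 5 fell, where 44.6% of all genes passed the test, 23.4% higher and 21.1% lower. The 6 were RPS27L, RPL41, RPL37, RPS27, RPS28 and RPL36, and RPL39L, RPSA, RPL17 and RPL7L1 were among the 5; RPS28 and RPL36 are named here after their values were seen, as is RPL8 at RA day 10. With library totals in place of TMM the medians were 0.17 for the members and 0.26 for all genes, and 9 members rose and 3 fell. The count of 11 was 5 without either RA day 21 library, 5 and 6 without untreated replicate 1 and 2, and 17 without either BMP2 day 10 library.

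RPL41, the smallest protein of the large subunit, was at 478.7 and 507.5 CPM in untreated cells and at 1378 and 1078 CPM at RA day 21. It was between 284.2 and 502.7 CPM in the other 10 treated libraries, so both RA day 21 libraries lay more than 2 times above all the rest. Its rise over untreated cells was 2.49-fold (log2 fold change 1.32 ± 0.27, SE; adjusted p = 0.0036), and the call held when any 1 of the 14 libraries was left out.

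RPL37, a zinc-binding protein of the large subunit, was at 314.4 and 315.7 CPM in untreated cells and at 750.9 and 690.7 CPM at RA day 21, against 183.2 to 352.4 CPM elsewhere. Its log2 fold change was 1.19 ± 0.27 (SE; adjusted p = 0.0057), and this call too held without any 1 library. RPS27, a zinc-binding protein of the small subunit, went from 548.4 and 548.7 CPM to 1316 and 1092 CPM, and was 244.2 to 572.9 CPM in the other treated libraries. The log2 fold change of RPS27 was 1.13 ± 0.38 (SE; adjusted p = 0.033); the call was lost without any 1 of the 4 libraries compared, with adjusted p from 0.076 to 0.15. For these 3 genes the libraries of RA day 21 did not overlap those of any other group.

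The largest fall at RA day 21 among members above 100 CPM in untreated cells was that of RPSA, a small-subunit protein also known as a laminin receptor. It was at 3102 and 3109 CPM in untreated cells, 2797 and 3282 CPM at RA day 5, 1864 and 1730 CPM at RA day 10, and 1408 and 1272 CPM at RA day 21. With BMP2 it was at 2313 and 2087 CPM at day 5, 2443 and 1459 CPM at day 10, and 1455 and 880.3 CPM at day 21. RPSA was thus lower at day 21 than at day 5 of either treatment in every library. Its fall from untreated cells was 2.32-fold at RA day 21 (log2 fold change -1.21 ± 0.28, SE; adjusted p = 0.0057) and 2.66-fold at BMP2 day 21 (-1.41 ± 0.28; adjusted p = 0.0024). The first call was lost without RA day 21 replicate 2 (-1.16, adjusted p = 0.051), and the second held without any 1 library. RPSA also fell from day 5 to day 21 in each treatment, by 1.18 ± 0.28 (SE) on the log2 scale with RA (adjusted p = 0.011) and by 0.91 ± 0.27 with BMP2 (adjusted p = 0.049). The RA call was lost without RA day 5 replicate 2 or either RA day 21 library, with adjusted p from 0.061 to 0.086, and the BMP2 call was lost in 11 of the 14 fits without 1 library.

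At RA day 21 shorter members had higher log2 fold changes. Over the 84 members, Spearman's rho between coding length and log2 fold change was -0.54. It was -0.62 over 76 of them, leaving out RPL3L and the members with most exon bases inside another gene on the same strand. Over 2329 other protein-coding genes with a mean of at least 100 CPM over the 14 libraries it was 0.01. These are correlations across genes of the same libraries, which are not independent, and they are given as a description. Among the 28 members with the shortest coding sequences (78 to 399 nucleotides) the median log2 fold change was 0.37. Of these, 20 had both RA libraries above both untreated ones and 5 had both below, beside 44.4% and 38.1% of all genes tested. In the middle 28 (402 to 567 nucleotides) the median was 0.02, with 9 above and 12 below. In the longest 28 (579 to 1284 nucleotides) it was -0.21, with 5 above and 21 below. All 6 members that rose were in the shortest group, which also held RPL39L, which fell. Of the 2329 other genes, the 116 with coding sequences of at most 450 nucleotides had a median of 0.08, beside -0.26 for the 2213 longer ones. Spearman's coefficient over the members was -0.29 at RA day 10, -0.08 at RA day 5, and 0.09, 0.05 and -0.15 at the 3 BMP2 days. Between RA and BMP2 it was -0.35, -0.42 and -0.56 at days 5, 10 and 21. At BMP2 day 21 the 3 medians were -0.48, -0.53 and -0.56.

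**Figure D3:**
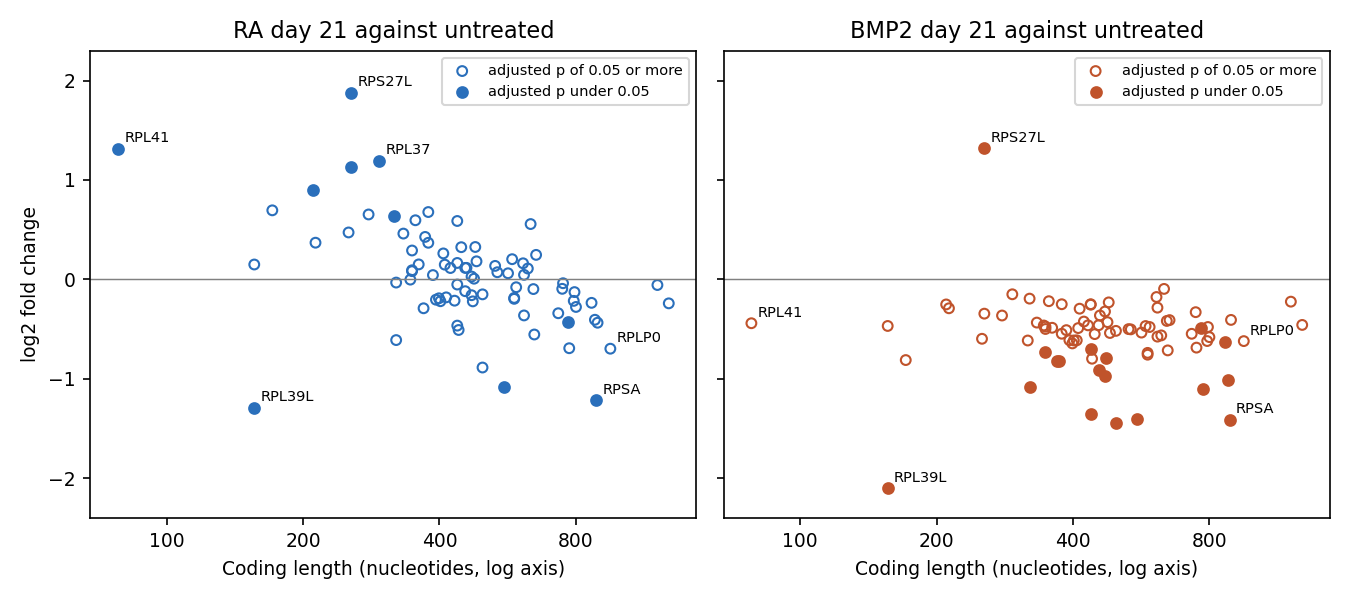
Log2 fold change from untreated cells against coding length in nucleotides (log axis) for 82 members at RA day 21 (left) and BMP2 day 21 (right); filled points had an adjusted p under 0.05. At RA day 21 the short RPL41 and RPL37 are above 1 and the long RPSA below -1, while at BMP2 day 21 nearly all points lie below 0 at any length.

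With BMP2 most members were lower than in untreated cells on each of the 3 days. At day 5 both BMP2 libraries lay below both untreated ones for 79 of 84 members, against 34.9% of all genes tested, and the median log2 fold change was -0.38 beside 0.00. The test called 4 lower and 0 higher, where 29.2% of all genes were called, 13.4% lower. These were RPL26, RPL22L1, RPL39L and RPL7L1, from -1.06 to -0.49, and 3 of them belong to the related copies described below. The count was 1 without BMP2 day 5 replicate 2 or untreated replicate 2, 2 without untreated replicate 1 or either RA day 21 library, 8 without either BMP2 day 10 library, and 31 without replicate 2 of BMP2 days 10 and 21 together.

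At BMP2 day 10 the median was -0.49 beside 0.05 over all genes, and 60 members had both libraries below, against 32.2% of all genes. The test called 6 lower and 0 higher, where 36.3% of all genes were called, 16.4% lower: RPL39L, RPL22L1, RPL17, RPL26, RPS24 and RPL7L1. This comparison rested on which library was used. Without replicate 1 the members' median was -0.88, and without replicate 2 it was -0.20, beside -0.02 and -0.01 over all genes tested. Without untreated replicate 1 or 2 the members' median was -0.54 and -0.45. The number of members called moved with the library left out, and so did the share of all genes called.

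At BMP2 day 21 the median was -0.51 beside 0.04, and 63 members had both libraries below, against 37.6% of all genes. The test called 17 lower and 1 higher, where 47.1% of all genes were called, 22.1% lower and 25.0% higher. The largest falls were those of RPL39L, RPS10, RPSA and RPL17, of which RPS10 and RPL17 overlap other genes as described below, and the 1 that rose was RPS27L. Without replicate 2 of this group the median was -0.18, and without replicate 1 it was -0.95. Without untreated replicate 1 or 2 it was -0.55 and -0.49. The number of members called moved with the library left out, and so did the share of all genes called.

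From day 5 to day 21 of BMP2, 2 members fell (RPL39L and RPSA), where 15.5% of all genes were called and 7.75% were called lower. The median of the members was -0.14, and it was -0.56 without BMP2 day 21 replicate 1 and 0.15 without replicate 2. Both the number of members called and the share of all genes called moved when 1 library was left out.

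RA and BMP2 were also compared directly at each day. At day 5, 67 members had both RA libraries above both BMP2 libraries, against 30.9% of all genes, with a median log2 difference of 0.24. No member passed the edgeR test at an adjusted p under 0.05, where 12.2% of all genes did. An unadjusted p under that value was found for 1 member, and for 5483 of the 19142 genes tested. DESeq2 also called 0 members, beside 21.9% of all genes. At day 10 the median was -0.13 and 0 members were called by edgeR, where 10.8% of all genes were. An unadjusted p under 0.05 was found for 0 members, and for 5300 of the 19142 genes tested. DESeq2 called 0 members, beside 20.7% of all genes. The day 10 median changed sign to 0.10 with library totals in place of TMM, and to 0.28 without BMP2 day 10 replicate 1.

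At day 21 most members were higher with RA. For 62 of 84 members both RA libraries were above both BMP2 libraries, against 37.1% of all genes, and the median log2 difference was 0.56 beside 0.02 over all genes. The test called 13 higher with RA and 0 lower, where 12.1% of all genes were called, 5.99% of all genes being called higher with RA. Of these 13, 10 were among the 28 members with the shortest coding sequences. The largest differences were those of RPL41 (1.76 ± 0.28, SE; adjusted p = 0.0053), RPS29, RPS27 and RPL37. RPS29, a small-subunit protein mutated in some cases of Diamond-Blackfan anaemia, was at 113.3 and 119.8 CPM in untreated cells, 197.3 and 179.9 CPM at RA day 21, and 85.0 and 47.7 CPM at BMP2 day 21. The count of 13 fell to 0 without RA day 21 replicate 1, 1 without RA day 21 replicate 2 and 1 without BMP2 day 21 replicate 2. It was 6 without untreated replicate 1 or 2, RA day 5 replicate 2 or BMP2 day 5 replicate 2, 7 without RA day 5 replicate 1, 8 without BMP2 day 5 replicate 1, and 28 without either BMP2 day 10 library. RPL41 alone kept its call without BMP2 day 21 replicate 2, and it lost it without RA day 21 replicate 1 (1.55, adjusted p = 0.061). From day 5 to day 21 of RA, RPL41, RPL37, RPS27 and RPS27L rose and RPSA and RPL39L fell, where 28.7% of all genes were called, 13.9% higher and 14.8% lower. The count of 6 was 1 without either RA day 21 library or RA day 5 replicate 2, 2 without RA day 5 replicate 1, 3 without either untreated or RA day 10 library, and 13 without either BMP2 day 10 library.

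**Figure D4:**
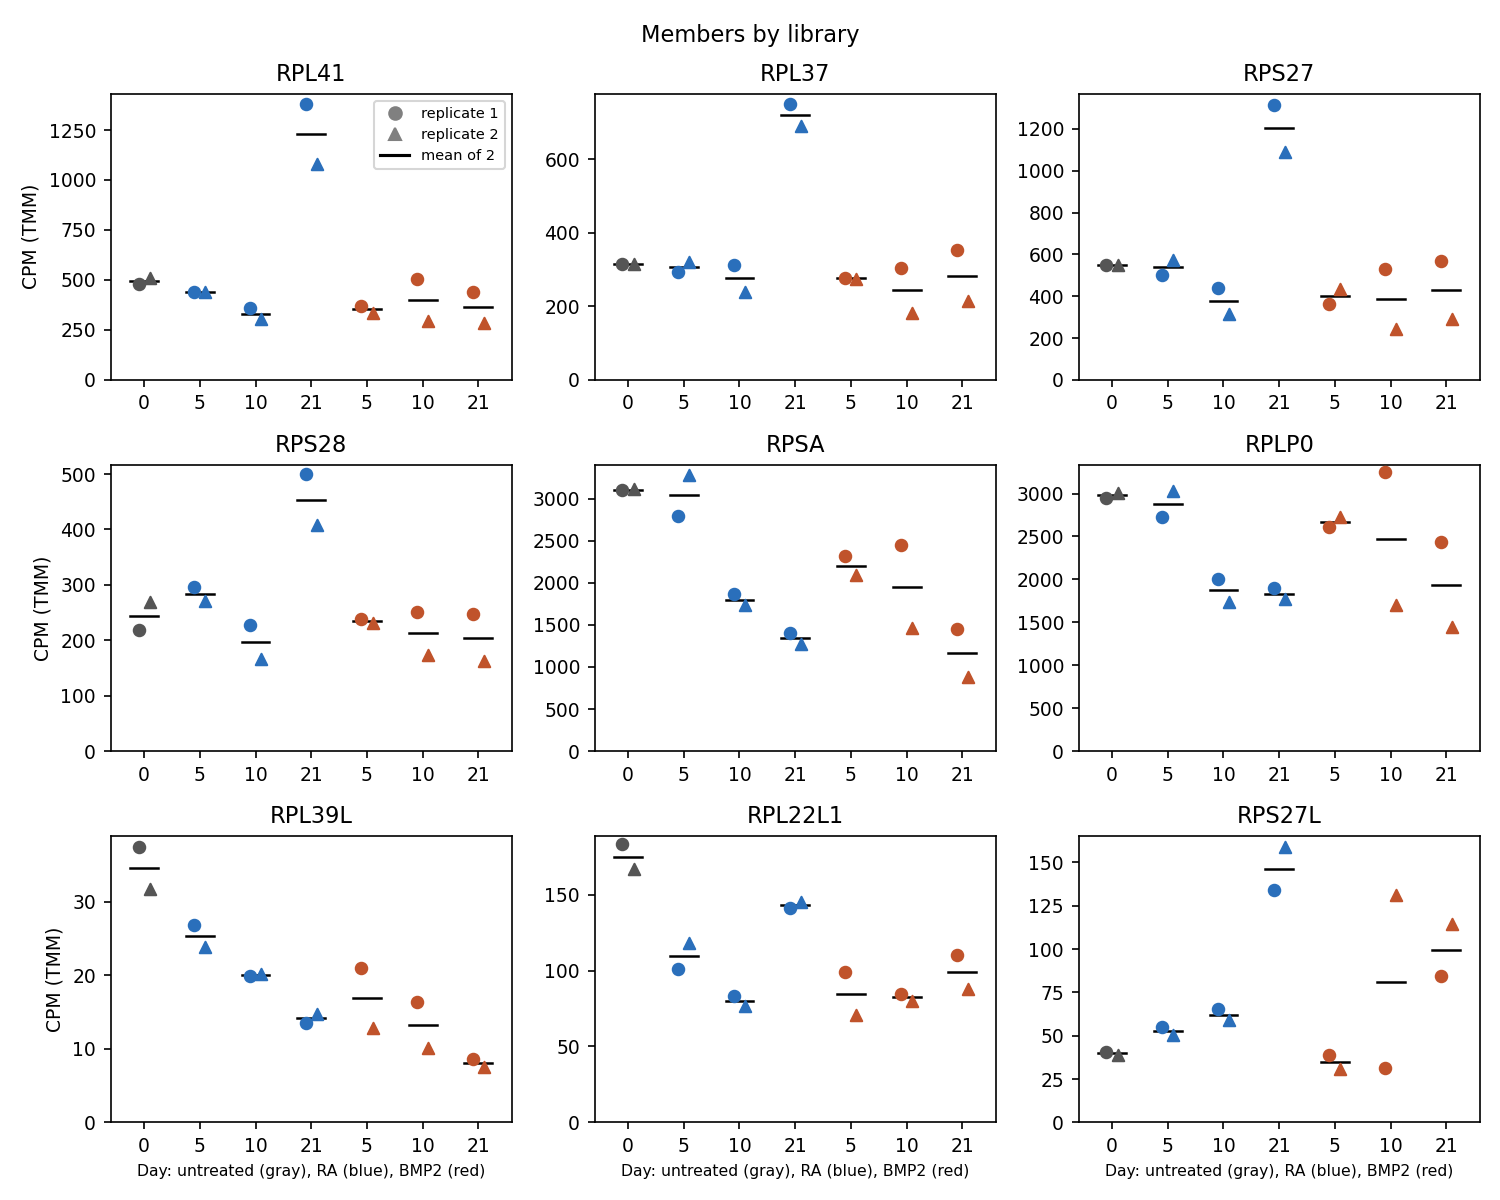
TMM-scaled CPM of 9 members in every library, by day of treatment (gray, untreated; blue, RA; red, BMP2; circles, replicate 1; triangles, replicate 2; bars, mean of 2). RPL41, RPL37, RPS27 and RPS28 were highest at RA day 21, RPSA fell with both treatments, and RPL39L was highest in untreated cells.

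The sequence around the annotated transcription start shows what most members share. RefSeq promoters on GRCh38.p14, which run from 250 bases before to 50 bases after the start, were matched for 67 of the 84 by symbol. A C at the start itself followed by at least 4 pyrimidines, read on the sense strand, was present in 43 of 67 (64.2%), and in 4.77% of 12751 other protein-coding genes tested. Within 10 bases of the start on either side such a run was present in 85.1% of members and 33.8% of the others. The same run at the start was present in 44.4% of 27 translation factor promoters and in 6.25% of 64 promoters of mitochondrial ribosomal proteins. Of the related copies with an L in the symbol, 1 of 5 had it at the start and 2 of 5 within 10 bases. Some members without this L, among them RPS29 and RPL17, also lacked it within 10 bases. The letters CCGGAA, the core bound by ETS factors, were found on either strand in 53.7% of the member promoters and 25.5% of the others. The letters CACGTG, the E-box bound by MYC, were found in 5.97% and 9.34%. A match describes the letters in the window and does not show that a factor binds there.

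The following windows of 30 bases hold 15 bases before the start and 15 from the start on, written 5′ to 3′ on the sense strand, with the run that begins with C in capitals. They are shown for members called at day 21, for RPLP0 of the stalk and RPS6, for RPL22, RPL22L1 and RPL39 of the related pairs, and for RPS27L and RPL7L1, which lack the run.
RPL41 (chr12:56116618-56116647, plus strand): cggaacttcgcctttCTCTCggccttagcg
RPS27 (chr1:153990747-153990776, plus strand): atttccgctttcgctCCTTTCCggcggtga
RPS28 (chr19:8321481-8321510, plus strand): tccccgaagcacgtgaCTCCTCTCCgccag
RPL36 (chr19:5690280-5690309, plus strand): ccgcgcggcgccagcCCTTCCgccacggcc
RPSA (chr3:39406705-39406734, plus strand): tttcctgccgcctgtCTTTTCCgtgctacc
RPLP0 (chr12:120201097-120201126, minus strand): gcgcgggcgcgaggcCCTTCTCTCgccagg
RPS6 (chr9:19380222-19380251, minus strand): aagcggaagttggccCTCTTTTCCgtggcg
RPL22 (chr1:6199581-6199610, minus strand): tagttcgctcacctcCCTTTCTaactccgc
RPL22L1 (chr3:170870181-170870210, minus strand): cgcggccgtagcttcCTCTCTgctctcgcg
RPL39 (chrX:119791616-119791645, minus strand): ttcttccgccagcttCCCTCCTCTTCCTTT
RPS27L (chr15:63157463-63157492, minus strand): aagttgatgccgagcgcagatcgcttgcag
RPL7L1 (chr6:42879601-42879630, plus strand): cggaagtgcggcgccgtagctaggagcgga
RPL41 and RPS27, which rose at RA day 21, and RPSA, which fell, all carry the run at the annotated start. In RPS28 it begins 1 base after the start. RPS27L and RPL7L1 have none in the window; RPS27L rose at day 21 of both treatments, and RPL7L1 fell in 5 of the 6 comparisons with untreated cells.

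Values follow by role in the ribosome. The stalk recruits the translation factors that hydrolyse GTP, and is built of RPLP0, RPLP1 and RPLP2. RPLP0 was at 2951 and 3004 CPM in untreated cells, 1901 and 1770 CPM at RA day 21, and 2430 and 1440 CPM at BMP2 day 21. RPLP1 was at 1173 and 1275 CPM in untreated cells and at 1304 and 1139 CPM at RA day 21, and RPLP2 at 437.5 and 481.6 CPM and then 509.1 and 469.9 CPM. At RA day 21 RPLP0 alone of the 3 had both libraries below untreated cells, and none of the 3 passed the test in any of the 11 comparisons. RPLP0 had a log2 fold change of -0.70 ± 0.30 (SE; adjusted p = 0.083), beside 0.00 for RPLP1 and 0.09 for RPLP2.

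RPL5 and RPL11 bind 5S ribosomal RNA and, when ribosome assembly is disturbed, the ubiquitin ligase MDM2. RPL5 was at 1695 and 1693 CPM in untreated cells, 1226 and 1075 CPM at RA day 10, and 1273 and 1230 CPM at RA day 21. RPL11 was at 339.9 and 390.3 CPM in untreated cells, 241.0 and 211.8 CPM at RA day 10, and 390.9 and 376.3 CPM at RA day 21. Neither passed the test in any comparison. At RA day 10 both genes were below untreated cells in both libraries, and at RA day 21 this held for RPL5 only of the pair.

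The exit tunnel, through which the new chain leaves, is lined in part by RPL4, RPL17 and RPL39. RPL4 was at 2329 and 2161 CPM in untreated cells and between 1155 and 2149 CPM after treatment, below both untreated libraries in every treated one, and it passed no test. RPL17 fell in 4 of the 6 comparisons with untreated cells, but it was at 6.67 and 7.92 CPM in untreated cells and 1.75 to 4.76 CPM after treatment. Of the fits without 1 library, 12 of 14 lost the call at BMP2 day 10, 4 that at RA day 21, and 2 each those at RA day 10 and BMP2 day 21. Its value is uncertain, because 93.4% of its exon bases lie inside another gene model on the same strand. RPL26 at the exit site (89.2%), RPS10 (91.6%) and RPL36A (93.5%) have the same limit, in GENCODE v29, and each was below 36 CPM in every library.

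RPS27A is made as a fusion with ubiquitin, which is cut off to leave the ribosomal protein. It was at 863.7 and 863.1 CPM in untreated cells, 527.1 and 464.8 CPM at RA day 10, 787.8 and 757.9 CPM at RA day 21, and 572.9 and 306.2 CPM at BMP2 day 21. It fell at BMP2 day 21 (log2 fold change -0.97 ± 0.32, SE; adjusted p = 0.028), a call lost without untreated replicate 1 or 2 or BMP2 day 21 replicate 2. Of the ribosomal proteins with other names, which lie outside the 84, FAU is also made as a fusion, and RACK1 is a scaffold on the small subunit. RACK1 fell at RA day 10 (-0.73 on the log2 scale), and FAU fell at BMP2 day 21 (-0.70).

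RPS6, which is phosphorylated downstream of mTOR, was at 1669 and 1797 CPM in untreated cells, 1185 and 1008 CPM at RA day 10, 1682 and 1691 CPM at RA day 21, and 1419 and 733.6 CPM at BMP2 day 21. It passed no test, although both libraries were below both untreated ones at RA day 10 and at all BMP2 days. RPL38, which helps the translation of Hox mRNAs in the mouse embryo, was at 175.3 and 196.6 CPM in untreated cells, 245.1 and 235.0 CPM at RA day 21 and 184.1 and 119.7 CPM at BMP2 day 21, and passed no test. RPS19 and RPS26, members mutated in Diamond-Blackfan anaemia, an inherited failure of red cell production, were higher at RA day 21 than at BMP2 day 21. RPS19 was at 871.5 and 837.8 CPM with RA and 578.1 and 375.3 CPM with BMP2 (0.84 ± 0.24, SE; adjusted p = 0.045). RPS26 was at 402.1 and 382.8 CPM and at 232.9 and 154.1 CPM (1.02 ± 0.27, SE; adjusted p = 0.036). RPS19 lost the call in 11 of the 14 fits without 1 library and RPS26 in 8. Of the 12 members on the list of Diamond-Blackfan genes, 4 were higher with RA than with BMP2 at day 21 (RPS19, RPS26, RPS29 and RPL35A), beside 13 of the 84 members and 5.99% of all genes. The list's median was 0.57, beside 0.56 over all members and 0.02 over all genes tested.

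The related copies ranged from never called to called most often. Over the 11 comparisons, 54 of the 84 members were never called and 30 were called at least once, where 68.2% of all genes tested were called at least once. RPL39L was called most often, 6 times, and RPL22L1 and RPL7L1 5 times each, always lower, while RPS27L was called 3 times, always higher. The other 3 copies, RPL26L1, RPL36AL and RPL3L, were never called. RPL3L, which is expressed in heart and skeletal muscle, had at most 0.47 CPM and at most 31 counts in any library, with 0 counts in 5 libraries, and no fold is given.

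RPL39L differs from RPL39 at 8 of 156 coding bases (94.9% identity, longest shared run 44 bases). A read that lies wholly within a shared run fits both, and the read length is not stated here. Both coding sequences are shown, from GENCODE v29 on GRCh38 and in the sense direction, with the differing bases in capitals, because counts of the 2 genes rest on these positions and on the untranslated parts.
RPL39L: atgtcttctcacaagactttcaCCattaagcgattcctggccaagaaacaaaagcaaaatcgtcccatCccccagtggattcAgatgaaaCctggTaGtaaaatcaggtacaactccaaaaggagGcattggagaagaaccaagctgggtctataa
RPL39: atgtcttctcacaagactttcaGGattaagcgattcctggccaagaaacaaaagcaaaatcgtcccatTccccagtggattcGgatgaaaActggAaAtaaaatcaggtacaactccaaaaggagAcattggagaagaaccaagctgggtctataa
RPL39L was at 37.4 and 31.7 CPM in untreated cells, 26.8 and 23.8 CPM at RA day 5, 19.9 and 20.1 CPM at RA day 10, and 13.5 and 14.8 CPM at RA day 21. With BMP2 it was at 21.0 and 12.8 CPM at day 5, 16.4 and 10.2 CPM at day 10, and 8.56 and 7.58 CPM at day 21. The 2 untreated libraries were above all 12 treated ones, and within each treatment both libraries of day 21 were below those of day 5. The fall was 2.45-fold at RA day 21 (log2 fold change -1.29 ± 0.28, SE; adjusted p = 0.0044) and 4.28-fold at BMP2 day 21 (-2.10 ± 0.29; adjusted p = 0.00036), and both calls held without any 1 of the 14 libraries. RPL39 itself was at 389.4 and 389.3 CPM in untreated cells, 463.4 and 400.1 CPM at RA day 21 and 348.3 and 214.2 CPM at BMP2 day 21, and it passed no test. Per 100 counts of RPL39, RPL39L had 9.61 and 8.14 counts in untreated cells, 2.90 and 3.69 at RA day 21, and 2.46 and 3.54 at BMP2 day 21. Over all 12 treated libraries the log2 ratio was lower by 0.75 on average, with an exact two-sided permutation p of 0.13 (adjusted over 6 pairs, 0.24).

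RPS27L differs from RPS27 at 56 of 255 coding bases (78.0% identity, longest shared run 20 bases). Its coding sequence is shown beside that of RPS27 in the same way, because the reads of the 2 genes can be told apart over most of it.
RPS27L: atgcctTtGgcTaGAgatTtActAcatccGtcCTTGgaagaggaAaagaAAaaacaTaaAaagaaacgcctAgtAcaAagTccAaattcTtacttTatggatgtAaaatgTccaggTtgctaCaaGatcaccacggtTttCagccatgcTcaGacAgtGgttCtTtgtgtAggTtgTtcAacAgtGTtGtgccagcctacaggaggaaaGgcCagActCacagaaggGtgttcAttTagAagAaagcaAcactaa
RPS27: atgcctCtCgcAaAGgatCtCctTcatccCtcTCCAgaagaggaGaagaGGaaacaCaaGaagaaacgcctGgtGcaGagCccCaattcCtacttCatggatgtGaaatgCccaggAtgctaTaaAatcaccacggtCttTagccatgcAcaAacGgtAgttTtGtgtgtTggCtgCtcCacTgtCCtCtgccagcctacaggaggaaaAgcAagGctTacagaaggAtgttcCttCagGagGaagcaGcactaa
RPS27L was at 40.7 and 38.9 CPM in untreated cells, 55.0 and 50.5 CPM at RA day 5, 65.2 and 59.3 CPM at RA day 10, and 133.9 and 158.9 CPM at RA day 21. With BMP2 it was at 38.8 and 30.9 CPM at day 5, 31.2 and 131.3 CPM at day 10, and 84.6 and 114.3 CPM at day 21. All 6 RA libraries were above the untreated ones, and of the BMP2 libraries it was replicate 2 of day 10 and both of day 21. The rise was 3.68-fold at RA day 21 (log2 fold change 1.88 ± 0.49, SE; adjusted p = 0.012), a call lost without untreated replicate 1 or 2 or RA day 21 replicate 2 (adjusted p 0.054 to 0.072). At BMP2 day 21 it was 1.32 ± 0.49 (SE; adjusted p = 0.046), a call lost in 12 of the 14 fits without 1 library. CDKN1A, an inhibitor of cyclin-dependent kinases that arrests the cell cycle, was at 7.46 and 10.1 CPM in untreated cells, 11.1 and 465.9 CPM at BMP2 day 10, 288.8 and 495.7 CPM at BMP2 day 21, and 135.8 and 205.9 CPM at RA day 21.

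RPL22L1 was at 183.2 and 167.0 CPM in untreated cells, and its relative RPL22, an RNA-binding protein of the large subunit, at 213.5 and 208.2 CPM. After treatment RPL22L1 was at 101.3 and 118.1 CPM at RA day 5, 83.2 and 77.0 CPM at RA day 10, 141.1 and 145.0 CPM at RA day 21, and 71.0 to 110.2 CPM in the 6 BMP2 libraries. Every treated library was below both untreated ones, and RA day 21 was the highest treated group. Its log2 fold change was -1.13 ± 0.18 (SE; adjusted p = 0.0026) at RA day 10, -1.04 ± 0.18 (adjusted p = 0.0027) at BMP2 day 5 and -1.09 ± 0.18 (adjusted p = 0.0018) at BMP2 day 10, and these 3 calls held without any 1 library. The fall at RA day 5 (-0.67 ± 0.18, SE; adjusted p = 0.046) was lost in 10 of the 14 fits without 1 library, and that at BMP2 day 21 (-0.82) without BMP2 day 21 replicate 2. RPL22 passed no test, and 97.5% of its exon bases lie inside another gene model on the same strand. The log2 ratio of RPL22L1 to RPL22 was lower by 0.46 over the 12 treated libraries than in untreated cells (exact two-sided permutation p = 0.033, adjusted 0.099).

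The other pairs gave no ratio that passed. The partners RPL26 and RPL36A have 89.2% and 93.5% of their exon bases inside another gene model on the same strand. Ratios to these partners are therefore uncertain. RPL26L1 per 100 counts of RPL26 was 78.0 and 82.5 in untreated cells and between 99.9 and 250.4 in the 12 treated libraries. This separation has an exact two-sided permutation p of 0.011, the smallest that 2 against 12 libraries can give, and 0.066 after adjustment over 6 pairs. These permutations exchanged single libraries and ignored their groups and days, so libraries of 1 group counted as independent. RPL26L1 itself, at 20.4 and 29.1 CPM untreated and 16.9 to 28.7 CPM treated, passed no test. RPL36AL was at 48.4 and 67.0 CPM in untreated cells and 39.6 to 67.9 CPM after treatment, and its log2 ratio to RPL36A was 0.53 higher after treatment (exact permutation p = 0.19). Between RA and BMP2 the ratio of RPL36AL was 0.54 lower with RA (exact two-sided permutation p = 0.050, adjusted 0.30), and the other 5 pairs had adjusted exact permutation p of 0.64 or more. RPL7L1, which despite its name acts in ribosome assembly, was at 242.6 and 268.6 CPM in untreated cells and 163.2 to 211.6 CPM after treatment. It was below both untreated libraries in every treated one, and its log2 fold changes where called were from -0.56 to -0.42. These calls were lost in 4 (BMP2 day 21) to 12 (BMP2 day 10) of the 14 fits without 1 library. RPL7 was at 1367 and 1470 CPM in untreated cells and passed no test.

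**Figure D5:**
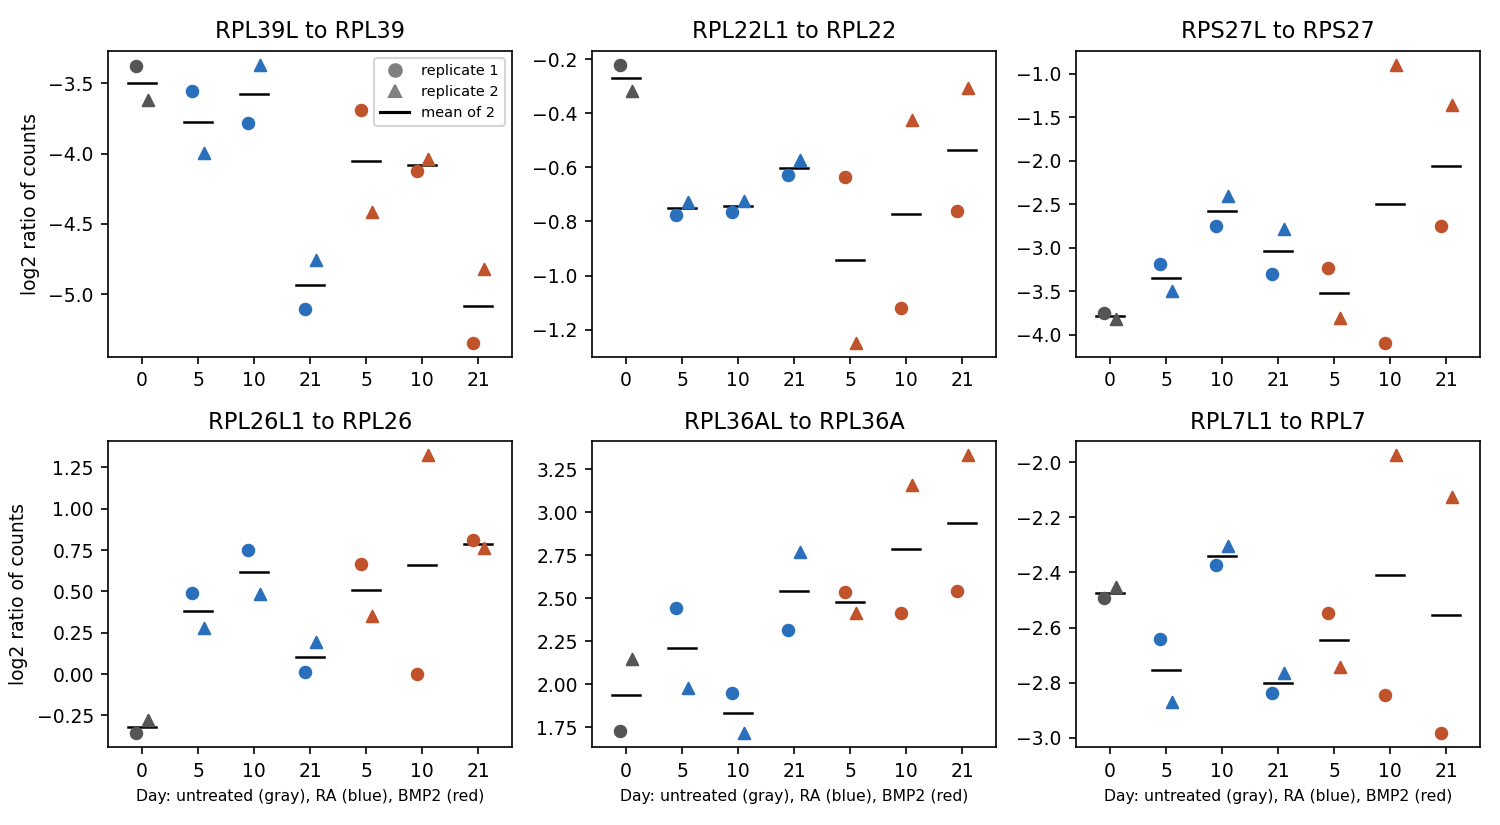
Log2 ratio of the counts of 6 related copies to those of the member each resembles, in every library (gray, untreated; blue, RA; red, BMP2; circles, replicate 1; triangles, replicate 2; bars, mean of 2). RPL39L to RPL39 was lowest at day 21 of both treatments, and RPL26L1 to RPL26 was lower in both untreated libraries than in all 12 treated ones. Counts of RPL22, RPL26 and RPL36A are uncertain, because most of their exon bases lie inside another gene model on the same strand.

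Many genes that assemble ribosomes fell from day 5 of BMP2 and day 10 of RA on. Of 41 tested assembly factors, 6 fell at RA day 5, 30 at RA day 10 and 34 at RA day 21, and 30, 31 and 37 fell at BMP2 days 5, 10 and 21, with at most 1 that rose. Over all genes tested, 2.72%, 11.1% and 21.1% were called lower at the 3 RA days, and 13.4%, 16.4% and 22.1% at the 3 BMP2 days. Their median log2 fold change was -1.46 at RA day 21 and -1.38 at BMP2 day 21, where the members' medians were 0.00 and -0.51. The helicase DDX21 fell by 2.25 and dyskerin (DKC1), a pseudouridine synthase, by 2.18 on the log2 scale at RA day 21. RRP9, a protein of the U3 particle that processes ribosomal RNA, fell by 2.13 at BMP2 day 21. Of 12 genes for RNA polymerase I and its factors, 8 fell at RA day 21 and 10 at BMP2 day 21, among them the subunit POLR1B (-1.74 and -1.79). Of 72 mitochondrial ribosomal proteins, 35 fell and 5 rose at RA day 21, and 46 fell and 1 rose at BMP2 day 21, where 23.4% and 25.0% of all genes were called higher. These lists were chosen with earlier results of the data known, and no test of a list was made.

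Of 35 translation factors, many of whose mRNAs also start with the pyrimidine run, 16 fell at RA day 10, 16 at RA day 21 and 16 at BMP2 day 21, beside 11.1%, 21.1% and 22.1% of all genes. EEF1A2, the form of elongation factor 1A found in muscle and nerve, rose at BMP2 days 5, 10 and 21 by 1.06, 1.52 and 1.75 on the log2 scale, and was lower with RA than with BMP2 at each day. Of 12 host genes of small nucleolar RNAs, 3 fell and 2 rose at RA day 21, near the shares of all genes (21.1% and 23.4%). At RA days 5 and 10 it was 1 and 7 that fell, beside 2.72% and 11.1% of all genes. At BMP2 days 5, 10 and 21 it was 4, 5 and 6, beside 13.4%, 16.4% and 22.1%. At BMP2 day 21, 1 rose, beside 25.0% of all genes. SNHG1 fell by 1.81 on the log2 scale at RA day 21 and by 2.27 at BMP2 day 21.

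Among 17 regulators of ribosome production, MYC was at 55.7 and 86.6 CPM in untreated cells and 13.2 to 45.3 CPM in the 12 treated libraries. MYC fell at RA days 10 and 21 (-1.80 and -2.24) and BMP2 days 10 and 21 (-1.78 and -2.19). MYCN was at 145.6 and 164.1 CPM in untreated cells and 28.6 and 31.2 CPM at BMP2 day 5, and it passed the test in 4 of the 6 comparisons. MYCL, from 27.2 and 24.4 CPM in untreated cells, was below 1.1 CPM in all 4 libraries of day 21.

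LARP1 was at 453.5 and 482.9 CPM in untreated cells and 237.3 to 338.9 CPM in every treated library, and it fell in all 6 comparisons, by 0.54 to 0.85 on the log2 scale. MTOR fell at RA days 10 and 21 (-0.59 and -0.79), and the translation repressor EIF4EBP2 in the same 2 comparisons (-0.45 and -0.85). TSC1, which restrains mTOR, rose in 5 of the 6 comparisons by 0.39 to 0.62, and its partner TSC2 at the 3 BMP2 days by 0.54 to 0.87. The S6 kinase gene RPS6KB2 rose at the 3 BMP2 days (0.72 to 0.94), and MAX, the partner of MYC, at RA day 21 and BMP2 days 10 and 21 (0.50 to 0.99). CDKN1A rose at RA day 21 and BMP2 days 10 and 21 (4.28, 4.76 and 5.48). DDIT4, EIF4EBP1, MDM2, RPS6KB1 and RPTOR passed the test in none of these 6 comparisons.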

How the data were processed

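The authors deposited a table of raw counts, 1 row per Ensembl gene. The deposited RPKM table was used in alternative tests alone; its gene length was at least 2 times the coding length for all 84 members, so counts may include intron reads. The submitters' processing notes name STAR, featureCounts, DESeq2 and hg19; their versions and roles are not given in the sources used here. Of counts from 1 to 19, 66.0% to 73.5% were even in each library, the pattern that counting a pair as 2 reads gives. Symbols came from a reference list that held 25214 of the 25952 identifiers, all 84 members among them.

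Counts were fitted with edgeR 4.0.16 in R 4.3.3 over all 14 libraries: 7 group means, TMM, filterByExpr (10 counts at least) and the quasi-likelihood F test, with p-values adjusted over all 19142 genes. Residual degrees of freedom were 7, and the prior added 3.08. On simulated data it was tested for recovery of known changes. CPM values are TMM-scaled. SE belongs to the log2 fold change, and was taken as its absolute value divided by the square root of the F statistic. Ratios within a library had 0.5 counts added, and their permutation tests exchanged single libraries without regard to group or day. The alternatives were RLE factors, no scaling, no filter, a CPM of at least 1, DESeq2 1.42.0, limma 3.58.1 on log2(RPKM + 1) and log2(RPKM + 0.1), the 4 libraries compared alone, a replicate block, and each library left out, where a lone library takes its spread from the other groups. The fit without both second BMP2 replicates was added after the data were seen.

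The members, lists and tests were chosen with earlier results of these data known. Named members had 1 of the 4 largest called changes of a direction, are a related copy or its partner, hold a listed role, or were called most often; other genes by the 3 largest called changes of a list, with all regulators. Some genes that the rule names are not reported here. Figures were drawn with matplotlib 3.10.9.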

Additional observations from a re-analysis of the deposited data

Results flagged for a closer look

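The difference between RA and BMP2 at day 21 was tested directly, and 13 members were higher with RA (edgeR quasi-likelihood test). Their log2 differences were 1.76 for RPL41, 1.51 for RPS29, 1.48 for RPS27, 1.34 for RPL37, 1.26 for RPL36, 1.25 for RPL35, 1.15 for RPS28 and 1.07 for RPS21. They were 1.02 for RPS26, 0.90 for RPL35A, 0.87 for RPL32, 0.87 for RPS15 and 0.84 for RPS19. All 13 comparisons share the same 4 libraries. In replicate 2 of BMP2 day 21 the members were lower than in replicate 1 for 82 of 84, and without it the test called 1 of the 13, RPL41.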

How the results depend on the processing

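No called result changed sign under the alternatives run. The RA against BMP2 log2 ratios of RPL22L1 (-0.05 to 0.14), RPL7L1 (-0.19 to 0.02) and RPS27L (-0.58 to 0.06), which did not pass a test, crossed 0 when 1 library was left out, as did the day 10 median given above. Counts of called members (main value first) moved as follows. RA day 5 (1) gave 2 with RLE factors, 0 without scaling, 0 without the filter, 3 with the CPM filter, 4 with DESeq2, 3 from the 4 libraries compared, 3 without the pair from BMP2 day 10, and 4 without both second BMP2 replicates of days 10 and 21. For RA day 10 (6) it was 11 without the filter, 18 with DESeq2, 48 from the 4 libraries, 28 without BMP2 day 10 and 71 without both second replicates. RA day 21 (11) gave 47, 17 and 29 in the last 3 of these settings. The share of all genes called moved too, from 44.6% to 66.6%, 52.2% and 49.3% there, and at RA day 10 from 24.0% to 32.0% with DESeq2 and 32.3%, 33.6% and 32.8% in the same 3. BMP2 day 5 (4) gave 7 with DESeq2, then 10, 7 and 31. BMP2 day 10 (6) gave 10 with DESeq2 and 0 from its 4 libraries. From those 4 libraries the share of all genes called was 5.995%, beside 36.3% in the main fit. BMP2 day 21 (18) gave 31 without BMP2 day 10. Without both second replicates the members' median was -0.20 at BMP2 day 10 and -0.19 at BMP2 day 21, in place of -0.49 and -0.51. RA against BMP2 gave, at day 5 (0), 1 without BMP2 day 10 and 5 without both second replicates, and at day 10 (0) 14 without both second replicates. At day 21 (13) it gave 23 without scaling, 21 with DESeq2, 26 and 25 with limma on log2(RPKM + 1) and log2(RPKM + 0.1), and 27 without BMP2 day 10. Without both second replicates it gave 12 higher and 1 lower, with a median of 0.24 in place of 0.56. RA day 21 against day 5 (6) gave 32 from the 4 libraries, 13 without BMP2 day 10 and 24 without both second replicates. BMP2 day 21 against day 5 (2) gave 1 without scaling, 4 without the filter, 4 with DESeq2, 1 from the 4 libraries, 1 with limma on log2(RPKM + 0.1) and 4 without BMP2 day 10. With DESeq2 the share of all genes called was 17.1% to 50.6% over the 11 comparisons. The cause of these moves was not tested. The untreated share was 5.74% with pseudogenes added and 5.58% without the L copies.

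Over 21 pairs of groups the correlation of same-numbered deviations was -0.34 to 0.15, which does not show whether the libraries were paired. Replicate numbers are those of the sample titles, and the descriptions of RA day 21 carry other numbers. With a replicate block the counts were 0 at RA day 5, 11 at RA day 10, 10 at BMP2 day 10 and 17 for RA against BMP2 at day 21.

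Leaving out 1 library in turn gave 0 to 3 called members at RA day 5, 1 to 31 at RA day 10, 5 to 17 at RA day 21, 1 to 8 at BMP2 day 5, 2 to 66 at BMP2 day 10 and 2 to 51 at BMP2 day 21. RA against BMP2 gave 0 to 1, 0 to 2 and 0 to 28 at days 5, 10 and 21. Day 21 against day 5 gave 1 to 13 with RA and 0 to 4 with BMP2. The share of all genes called moved in these fits as well, for RA against BMP2 at day 21 from 1.44% to 21.0%. With 2 libraries a group, these counts carry little precision.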
